A study of Mus musculus with 8 samples.

Results

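Genes that make fatty acids from acetyl-CoA, modify them and assemble them into triglycerides were examined in liver RNA of mice that had received an AAV against *Srsf10* and of control mice. The 38 genes were listed by name from these pathways, with the transcription factors *Srebf1*, *Mlxipl* and *Mlx*. The rule itself used no value from these livers, but the list was drawn up with earlier results of these data known. Each matched 1 Ensembl identifier among the 45706 identifiers counted, and all 38 were among the 15491 genes that passed the filter on low counts. They comprised 6 genes of substrate and NADPH supply, 5 of fatty acid synthesis, 4 desaturases, 5 elongases, 3 transcription factors and 15 genes of triglyceride assembly.

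The study asked how loss of SRSF10, a splicing factor of the SR protein family, affects the liver under an obesogenic diet. RNA-seq libraries came from 8 livers of male mice, 4 labelled *Srsf10-kd* (genotype Srsf10KD) and 4 labelled *Ctrl* (genotype WT). The labels write the strain as C56B6/J and the methods of the study as C57BL/6J. All mice had been given AAV2/8 by tail vein at an age of 6 weeks; 4 weeks after that they went onto a high fat diet (fat supplying 60% of calories), which lasted 12 weeks. The vector drove GFP and a short hairpin RNA in the mirE backbone from a chicken β-actin promoter, which is active in many cell types, and carried a hairpin against *Srsf10* in the *Srsf10-kd* mice and a control hairpin in the *Ctrl* mice. The control mice were therefore wild type for the gene but not free of virus. The labels give each liver as a separate sample, and p-values here measure the spread between these livers.

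In de novo lipogenesis, cytosolic citrate is cleaved to acetyl-CoA, which acetyl-CoA carboxylase and fatty acid synthase build into palmitate, and desaturases and elongases then shape the fatty acyl chains. Triglyceride assembly starts from glycerol-3-phosphate, which takes up an acyl group from a glycerol-3-phosphate acyltransferase and another from an acylglycerol-phosphate acyltransferase, loses its phosphate to a lipin and receives the last acyl group from a DGAT enzyme. In liver, SREBP1c, encoded by *Srebf1*, and ChREBP, encoded by *Mlxipl*, switch on many of these genes when insulin and carbohydrate are plentiful, and fat made by this route is one source of the triglyceride stored in steatosis.

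The libraries held 50456404 to 59697241 counts, with 4.77% to 6.39% on mitochondrial genes. *Srsf10* itself measured 34.3, 34.0, 41.0 and 36.5 CPM (counts relative to library size, scaled by TMM) in *Srsf10-kd* 1 to 4 and 31.6, 33.7, 35.3 and 30.9 CPM in *Ctrl* 1 to 4, a log2 fold change of 0.15 ± 0.10 (SE; edgeR adjusted p = 0.378). RNA of the targeted gene was thus no lower under the *Srsf10-kd* label, and every direction below is that of the label. *Srsf10-kd* 3 stood apart on the first principal component (44.8% of the variance), at -67.4 where the other *Srsf10-kd* livers lay between -11.5 and -1.92. Deviations of log2 levels from each gene's mean also sloped with transcript length, by -0.181 per doubling of length in *Srsf10-kd* 3, by -0.0639 to -0.0238 in the other *Srsf10-kd* livers and by -0.0303 to 0.133 in the *Ctrl* livers, and many folds are also given with this trend removed. Hepatocyte markers were abundant in every liver: the 5 measured of 6 summed to 88017 to 105906 CPM in *Srsf10-kd* and 70269 to 97132 CPM in *Ctrl*. The 6 cholangiocyte markers all had log2 fold changes above 0, summing to 46.9 to 69.2 CPM against 31.8 to 39.3 CPM without overlap. *Spp1* alone averaged 32.3 of 54.3 CPM in *Srsf10-kd* and 21.4 of 36.4 CPM in *Ctrl*. Singly, only *Krt19* and *Spp1* lay above without overlap, as did 6.73% of all genes. None of the 6 passed the adjusted p in edgeR with all livers. *Krt19* did in DESeq2 (adjusted p = 0.00826), in limma-voom (0.00816) and in edgeR without *Ctrl* 3 (0.0238). *Cftr* did in limma-voom (adjusted p = 0.0309). Of the 7 adipocyte markers, which matter here because adipose tissue also expresses lipogenic genes, the sums were 23.7 to 72.4 CPM in *Srsf10-kd* and 15.2 to 32.2 CPM in *Ctrl*. The 5 that were tested all had log2 fold changes above 0 in edgeR, where 48.7% of all genes lay below 0. Only *Fabp4* kept this sign throughout. *Cidea* was -0.66 and *Cfd* -0.17 in limma-voom, and *Adipoq* and *Plin1* fell to -0.21 and -0.74 as single livers were left out. *Fabp4*, which macrophages and endothelial cells also express, was 20.5 to 45.5 CPM against 13.7 to 21.7 CPM (log2 fold change 0.84; adjusted p = 0.143 in edgeR and 0.0422 in DESeq2). *Adipoq* stayed between 0.0521 and 2.21 CPM, highest in *Srsf10-kd* 4, and *Lep* was at 0 in *Ctrl* 1 and *Ctrl* 4. Sums of the macrophage, endothelial, stellate cell and lymphocyte lists overlapped between the groups, though single markers went opposite ways. In limma-voom the endothelial *Lyve1* and *Pecam1* were higher (adjusted p = 0.0275 and 0.0241) and *Stab2* lower (0.048), as was the stellate cell marker *Reln* (0.0373). *Lyve1* did not overlap, at 22.8 to 34.2 CPM in *Srsf10-kd* and 13.6 to 21.9 CPM in *Ctrl*. None of these passed the adjusted p in edgeR with all livers. Whether cell make-up contributed to any value below was not tested, and in whole liver fewer cells of a type and less RNA per cell cannot be told apart.

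Levels that did not overlap between the groups were found in few of these genes. Each role held too few genes for such counts to set roles apart. In 5 of the 38 genes (13.2%) every *Srsf10-kd* liver lay below every *Ctrl* liver: *Gpam*, *Lpin2*, *Lpgat1* and *Agpat3*, all of glycerolipid assembly, and the desaturase *Fads2*. Over all genes tested the same was true of 7.53%. No member lay above in every liver, against 6.73% of all genes.

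None of the 38 genes passed an adjusted p of 0.05 in edgeR, lower or higher, where 0.071% of the tested genes passed lower and 0% higher. At an unadjusted p under 0.05, 7 members (18.4%) were lower in *Srsf10-kd*, namely the 5 above with *Gpd1* and *Lpin3*, and 0 were higher, while over all genes 10.6% were lower and 11.2% higher. DESeq2, run without the filter on low counts, placed 1 member (2.63%), *Lpin2*, past the adjusted threshold and lower. Its share was 1.91% over 26598 identifiers with a read in at least 1 liver, a base that includes genes too scarce for the filter. This share is therefore not a like background for the members. In limma-voom *Gpam* and *Lpin2* passed, 5.26% of the members against 6.68% of all genes. Without *Srsf10-kd* 3 the edgeR test called 1 member, *Gpam*, lower (0.389% of all genes), and without *Ctrl* 3 it called 0 (2.17% of all genes). With the trend on transcript length removed, 6 members had an unadjusted p under 0.05 lower (7.09% of all genes), namely *Gpam*, *Lpin2*, *Fads2*, *Gpd1*, *Lpin3* and *Agpat2*, and 1, *Scd2*, higher (8.42% of all genes). The median log2 fold change of the 38 genes was -0.18 against 0.01 over all genes tested, and 65.8% of them lay below 0 against 48.7% of all genes.

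**Figure D1:**
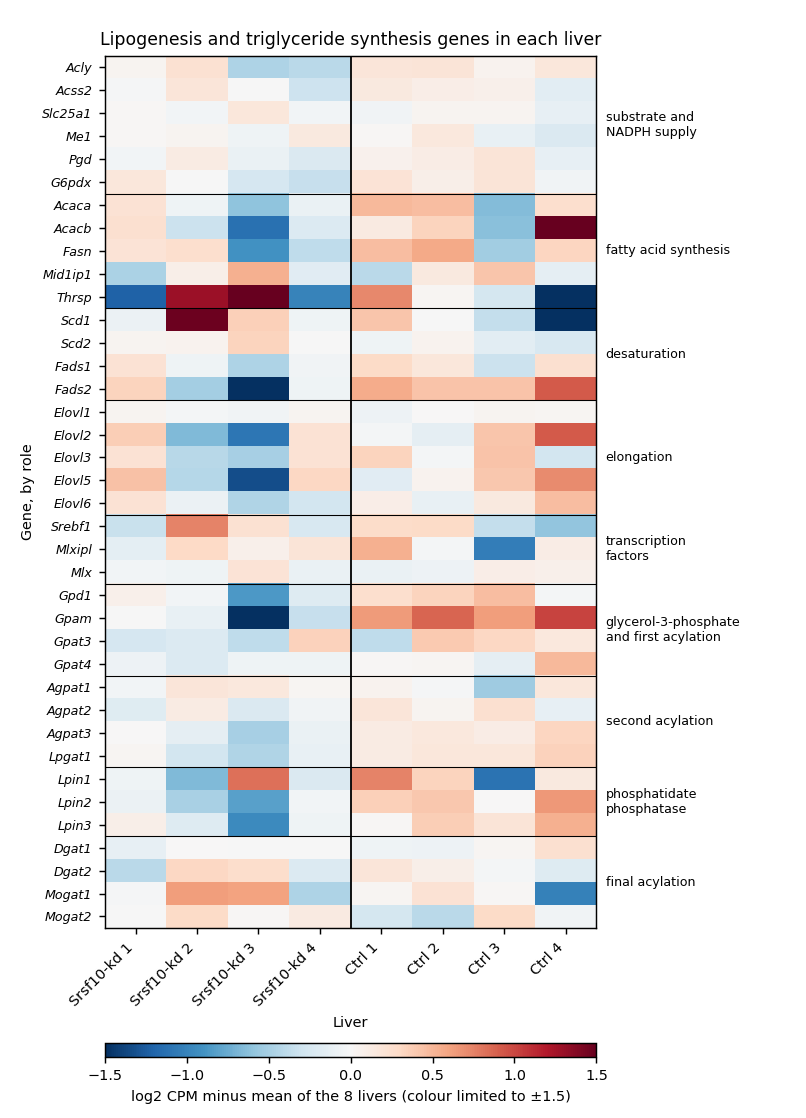
Level of each of the 38 genes (rows, grouped by role) in each of the 8 livers (columns, *Srsf10-kd* left of the line and *Ctrl* right), as log2 CPM minus the gene's mean over the 8 livers; blue is lower and red higher, with colour limited to ±1.5. *Gpam* and *Fads2* are red in all *Ctrl* livers and lower in each *Srsf10-kd* liver, deepest blue in *Srsf10-kd* 3, whereas *Thrsp* and *Scd1* differ more within a group than between the groups.

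The heat map of levels by liver shows that much of the variation ran between livers of 1 group. *Srsf10-kd* 3 held the lowest value of the 8 livers for 16 of the 38 genes and the highest for 6. *Ctrl* 4 held the highest for 12 genes and the lowest for 7, and *Srsf10-kd* 2 the highest for 8.

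Substrate supply did not separate the groups. *Acly*, the ATP citrate lyase that releases acetyl-CoA in the cytosol, measured 100, 114, 70.7 and 73.2 CPM in *Srsf10-kd* 1 to 4 and 111, 111, 101 and 109 CPM in *Ctrl* 1 to 4. *Srsf10-kd* 2 was the highest of all livers, and the other 3 *Srsf10-kd* livers were below every *Ctrl* liver, with a log2 fold change of -0.27 ± 0.16 (edgeR adjusted p = 0.323), or -0.16 with the length trend removed. *Slc25a1*, the mitochondrial citrate carrier, lay at 168 to 194 CPM in *Srsf10-kd* and 159 to 178 CPM in *Ctrl*. *Acss2*, which makes acetyl-CoA from acetate, and the NADPH-forming enzymes *Me1*, *Pgd* and *G6pdx* had log2 fold changes between -0.21 and 0.07. The summed level of the 6 genes was 489 to 548 CPM in *Srsf10-kd* and 487 to 563 CPM in *Ctrl*.

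The fatty acid synthesis enzymes were spread widely within both groups. *Acaca*, acetyl-CoA carboxylase 1, which makes the malonyl-CoA used for synthesis, measured 28.6, 23.6, 16.2 and 23.0 CPM in *Srsf10-kd* 1 to 4 and 34.6, 34.1, 15.7 and 29.5 CPM in *Ctrl* 1 to 4. Its lowest liver was *Ctrl* 3, and the log2 fold change of -0.32 ± 0.25 (edgeR adjusted p = 0.445) became 0.02 with the length trend removed. Of the 75-base stretches of *Acaca* exons, 26.8% also occurred in another annotated gene, so its count is uncertain. *Fasn*, fatty acid synthase, measured 108, 112, 50.4 and 72.5 CPM in *Srsf10-kd* and 130, 139, 65.6 and 118 CPM in *Ctrl*. The groups overlapped, since *Ctrl* 3 was below 3 of the *Srsf10-kd* livers, and the log2 fold change of -0.40 ± 0.29 (edgeR adjusted p = 0.408) was -0.06 with the length trend removed. *Acacb*, the carboxylase of the mitochondrial surface whose malonyl-CoA restrains fatty acid oxidation, reached 74 CPM in *Ctrl* 4 and 11.4 to 31.5 CPM in the other 7 livers, and its log2 fold change of -0.85 ± 0.43 (edgeR adjusted p = 0.265) was -0.51 with the length trend removed and ranged from -1.11 to -0.28 as single livers were left out.

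Among the regulators of this step, *Thrsp*, which encodes Spot 14, a protein linked to lipogenesis, had the largest SD of log2 levels of the 38 genes in each group. It measured 21.2, 119, 259 and 24.4 CPM in *Srsf10-kd* and 81.1, 50.1, 40.9 and 12.6 CPM in *Ctrl*. *Srsf10-kd* 3 and *Srsf10-kd* 2 were the highest livers and *Ctrl* 4 the lowest, and the log2 fold change of 1.20 ± 0.79 (edgeR adjusted p = 0.367) was 0.25 without *Srsf10-kd* 3 and -0.40 in limma-voom. *Mid1ip1*, the Spot 14 homologue that promotes polymerization of acetyl-CoA carboxylase, averaged 23.6 ± 7.13 CPM in *Srsf10-kd* and 23.5 ± 5.71 CPM in *Ctrl* (SD, n = 4 each). On the opposite strand, an annotated gene covers 25.5% of *Mid1ip1* exonic bases.

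*Scd1*, the stearoyl-CoA desaturase that makes oleate and palmitoleate, was the most abundant member per length, at a mean of 343 CPM per kilobase of exon. It measured 1350, 3971, 1838 and 1373 CPM in *Srsf10-kd* 1 to 4 and 1918, 1425, 1121 and 433 CPM in *Ctrl* 1 to 4. *Srsf10-kd* 2 was far above every other liver and *Ctrl* 4 far below, while the other 6 livers stayed between 1121 and 1918 CPM. The log2 fold change was 0.80 ± 0.46 (edgeR adjusted p = 0.316), and it ranged from 0.31 to 1.10 as single livers were left out. *Scd2*, the form typical of brain and of the newborn, was low at 2.99 to 3.79 CPM in *Srsf10-kd* and 2.55 to 3.11 CPM in *Ctrl*.

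*Fads2*, the delta-6 desaturase of polyunsaturated fatty acids, is at chr19:10062765-10101746 (minus strand, GRCm38) and measured 463, 258, 85.3 and 350 CPM in *Srsf10-kd* and 541, 493, 494 and 694 CPM in *Ctrl*. All *Srsf10-kd* livers lay below all *Ctrl* livers, with *Srsf10-kd* 1 close to the lowest *Ctrl* liver and *Srsf10-kd* 3 far below the rest. The log2 fold change was -0.94 ± 0.40 (edgeR p = 0.0404, adjusted p = 0.213; two-sided exact permutation p = 0.0286) and -0.94 with the length trend removed; leaving out *Srsf10-kd* 3 gave -0.64 and an adjusted p of 0.182. This permutation p is the smallest that 70 splits of 8 livers allow. Every gene whose groups do not overlap has it, so here and below it restates the absence of overlap and is no further support. *Fads1*, the delta-5 desaturase that acts after it, overlapped between the groups at 272 to 435 CPM and 301 to 458 CPM.

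All 5 elongases overlapped between the groups. *Elovl2* and *Elovl5*, which extend polyunsaturated chains, were the most abundant of them per length. *Elovl5* measured 994, 545, 292 and 911 CPM in *Srsf10-kd* and 652, 761, 970 and 1199 CPM in *Ctrl*, and *Elovl2* 974, 477, 356 and 877 CPM against 737, 686, 1006 and 1434 CPM. In both genes *Srsf10-kd* 2 and 3 were the lowest livers and *Ctrl* 4 the highest. The log2 fold change was -0.38 ± 0.35 for *Elovl5* (edgeR adjusted p = 0.508; 0.03 in limma-voom) and -0.53 ± 0.34 for *Elovl2* (edgeR adjusted p = 0.365). *Elovl6*, which extends palmitate to stearate and is a classical lipogenic target, measured 40.5, 32.8, 25.4 and 28.8 CPM in *Srsf10-kd* and 37.3, 32.3, 38.5 and 48.0 CPM in *Ctrl*. Its log2 fold change of -0.29 ± 0.17 (edgeR adjusted p = 0.314) was -0.09 with the length trend removed. *Elovl1*, for very long saturated chains, had the smallest SD of log2 levels of the 38 genes in each group, with 25.0 to 26.8 CPM in *Srsf10-kd* and 24.7 to 26.7 CPM in *Ctrl*, and *Elovl3* overlapped at 203 to 333 CPM and 236 to 385 CPM.

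The transcription factors did not separate the groups. *Srebf1* measured 54.6, 115, 80.9 and 58.2 CPM in *Srsf10-kd* and 83.4, 84.4, 53.8 and 45.9 CPM in *Ctrl*. *Srsf10-kd* 2 was highest and *Ctrl* 4 lowest, with the rest interleaved, and the log2 fold change was 0.21 ± 0.27 (edgeR adjusted p = 0.653), but -0.16 in limma-voom and -0.05 without *Srsf10-kd* 2. *Mlxipl* measured 142, 193, 166 and 180 CPM in *Srsf10-kd* and 227, 154, 76.2 and 169 CPM in *Ctrl*, so that the *Ctrl* group held both its extremes, and its log2 fold change of 0.12 ± 0.27 (edgeR adjusted p = 0.808) was -0.11 without *Ctrl* 3. *Mlx*, the partner of ChREBP, lay at 28.5 to 35.1 CPM and 28.3 to 32.5 CPM.

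**Figure D2:**
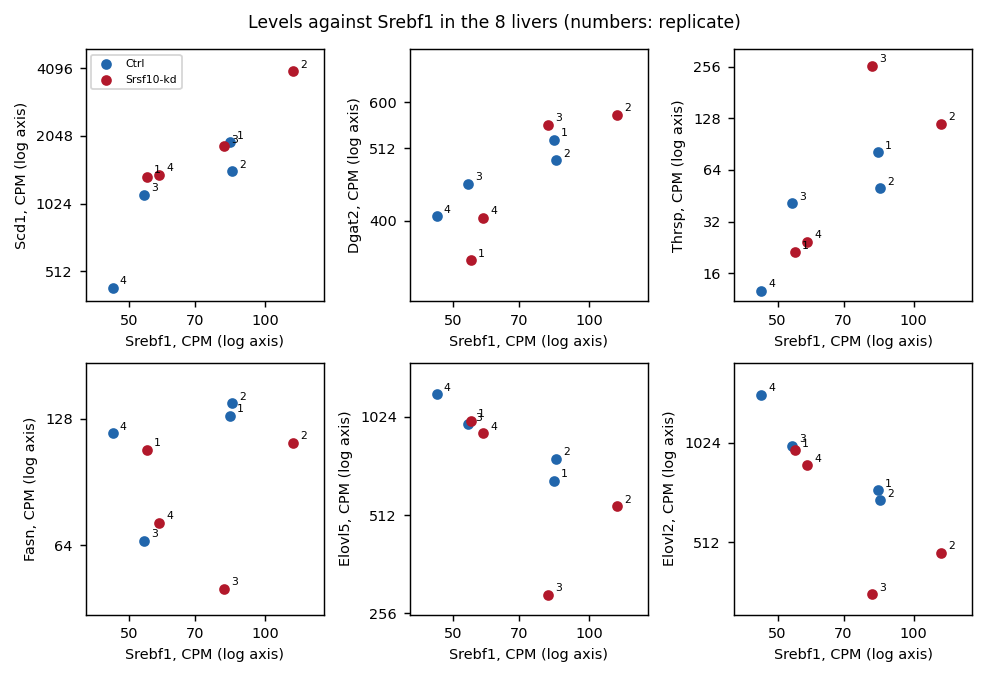
CPM of 6 members against CPM of *Srebf1* in the same liver (both axes logarithmic; red *Srsf10-kd*, blue *Ctrl*; the number beside a point is the replicate). *Scd1*, *Dgat2* and *Thrsp* are higher in livers with more *Srebf1*, *Elovl2* and *Elovl5* are lower there, and *Fasn* shows no order, with *Srsf10-kd* 3 the lowest at 50.4 CPM.

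Liver-to-liver levels were then set against *Srebf1*, a relation looked at after the values had been seen. Over the 8 livers, log2 *Scd1* and log2 *Srebf1* had a Pearson r of 0.881 (exact permutation p = 0.00218) and a Spearman rho of 0.929 (exact permutation p = 0.00223). Adjusted over the 37 members compared with *Srebf1*, these were 0.0808 and 0.0826, and 0 of the 37 relations passed while 7 had an unadjusted Pearson p under 0.05. The r of *Scd1* was 0.795 without *Srsf10-kd* 2 and *Ctrl* 4, the livers farthest from the median of *Srebf1*, and 0.909 with the group means removed. Among triglyceride genes, *Dgat2* had r = 0.849 and rho = 0.714 (exact permutation p = 0.0099 and 0.0576, adjusted p = 0.121 and 0.266), and r = 0.823 without those livers. *Elovl2* ran the other way, with r = -0.828 and rho = -0.857 (exact permutation p = 0.00942 and 0.0107, adjusted p = 0.121 and 0.19), and r = -0.711 without them. *Fasn*, *Acly* and *Acaca*, which are textbook SREBP1c targets, had r of 0.177, 0.16 and 0.0855 and rho of 0.357, 0.524 and 0.286. *Elovl6* had r = -0.549 and rho = -0.595. Each group held only 4 livers, too few for an r within it.

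**Figure D3:**
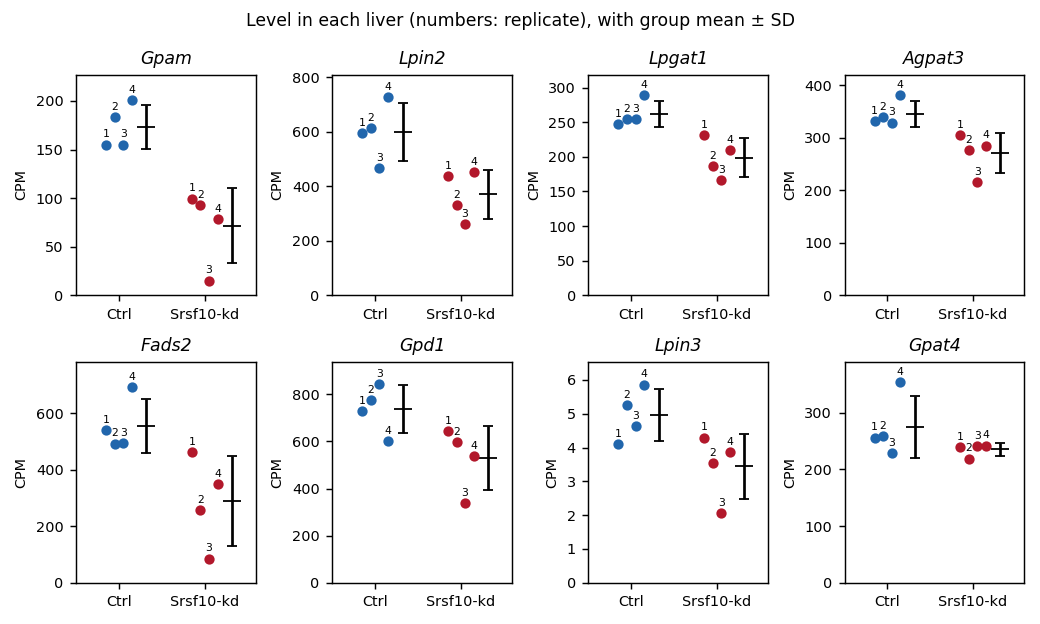
CPM of 8 genes of triglyceride assembly and fatty acid desaturation in each liver (points; blue *Ctrl*, red *Srsf10-kd*; the number above a point is the replicate), with the group mean ± SD (n = 4) at the right of each group and axes from 0. In *Gpam*, *Lpin2*, *Lpgat1*, *Agpat3* and *Fads2* the groups do not overlap, and *Srsf10-kd* 3 is the lowest liver in each; in *Gpd1*, *Lpin3* and *Gpat4* they overlap.

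Triglyceride assembly begins with glycerol-3-phosphate. *Gpd1*, the cytosolic glycerol-3-phosphate dehydrogenase that makes it, measured 644, 597, 337 and 538 CPM in *Srsf10-kd* 1 to 4 and 728, 775, 843 and 600 CPM in *Ctrl* 1 to 4. Only *Srsf10-kd* 1 exceeded a *Ctrl* liver, *Ctrl* 4. The log2 fold change was -0.48 ± 0.20 (edgeR p = 0.0378, adjusted p = 0.209; exact permutation p = 0.0571), -0.50 with the length trend removed and -0.31 without *Srsf10-kd* 3. A gene on the opposite strand overlaps 13% of *Gpd1* exonic bases, and the strand used in counting is not given in the sources used here.

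*Gpam* had the largest negative difference of the 38 genes. It encodes the mitochondrial glycerol-3-phosphate acyltransferase 1, which adds the first acyl group, and lies at chr19:55067268-55127238 (minus strand, GRCm38). The levels were 99.6, 92.6, 15.2 and 78.4 CPM in *Srsf10-kd* and 155, 183, 155 and 201 CPM in *Ctrl*. Every *Srsf10-kd* liver was below every *Ctrl* liver, 3 of them between 78.4 and 99.6 CPM and *Srsf10-kd* 3 far lower. The log2 fold change was -1.28 ± 0.44 (edgeR p = 0.0166, adjusted p = 0.164; two-sided exact permutation p = 0.0286), which is 0.412 times the *Ctrl* level. Without *Srsf10-kd* 3 the difference was smaller, -0.94, and the adjusted edgeR p was 0.0301; limma-voom, which weights each library by its quality, gave -1.08 and an adjusted p of 0.0299. DESeq2 gave an adjusted p of 0.134, and removal of the length trend left -1.09 with an adjusted p of 0.258.

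The other first-step acyltransferases were less apart. *Gpat4*, the main microsomal enzyme and per length the most abundant of the 3 (38.1 CPM per kilobase, against 18.4 for *Gpam* and 6.04 for *Gpat3*), measured 239, 219, 241 and 242 CPM in *Srsf10-kd* and 256, 258, 229 and 354 CPM in *Ctrl*. *Ctrl* 3 was below 3 of the *Srsf10-kd* livers, and the log2 fold change was -0.22 ± 0.14 (edgeR adjusted p = 0.361), or -0.0204 with the length trend removed. *Gpat3*, the form prominent in adipose tissue, lay at 15.9 to 26.4 CPM and 15.9 to 27.1 CPM; another annotated gene overlaps 37.4% of its exonic bases on the opposite strand. Summed over *Gpd1* and the 3 acyltransferases, the livers held 609 to 1000 CPM in *Srsf10-kd* and 1155 to 1253 CPM in *Ctrl*.

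At the second acylation, 2 of 4 genes had groups that did not overlap. *Agpat3* (chr10:78269178-78352489, minus strand) encodes a lysophosphatidic acid acyltransferase and measured 305, 277, 216 and 285 CPM in *Srsf10-kd* and 332, 339, 329 and 381 CPM in *Ctrl*. *Lpgat1* (chr1:191717834-191784255, plus strand) encodes an acyltransferase for lysophospholipids, counted here with this step, and measured 231, 187, 166 and 210 CPM against 247, 255, 255 and 289 CPM. In both genes *Srsf10-kd* 3 was lowest and *Ctrl* 4 highest, and the gap between the groups was narrow. The log2 fold change was -0.35 ± 0.13 for *Agpat3* (edgeR p = 0.0207, adjusted p = 0.174; exact permutation p = 0.0286) and -0.40 ± 0.13 for *Lpgat1* (edgeR p = 0.0102, adjusted p = 0.15; exact permutation p = 0.0286). Both have long transcripts, the longest of 5980 and 7233 bases. With the length trend removed both differences shrank to -0.15 (edgeR adjusted p = 0.512 and 0.554). *Agpat2*, per length the most abundant of the 4 at 80.8 CPM per kilobase, lay at 148 to 186 CPM in *Srsf10-kd* and 157 to 201 CPM in *Ctrl*; its log2 fold change of -0.17 ± 0.12 (edgeR adjusted p = 0.417) was -0.35 with the length trend removed (adjusted p = 0.263). *Agpat1* lay at 9.80 to 11.5 and 6.94 to 11.3 CPM.

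The lipins, which remove the phosphate from phosphatidate, differed among themselves. *Lpin2* (chr17:71182560-71249817, plus strand), per length the most abundant at 39.7 CPM per kilobase against 19.3 for *Lpin1* and 1.14 for *Lpin3*, measured 437, 332, 263 and 452 CPM in *Srsf10-kd* and 594, 615, 466 and 727 CPM in *Ctrl*. The highest *Srsf10-kd* liver fell just below *Ctrl* 3, the lowest *Ctrl* liver. *Lpin2* had the smallest p of the 38 genes, with a log2 fold change of -0.70 ± 0.20 (edgeR p = 0.00559, adjusted p = 0.131; exact permutation p = 0.0286), or 0.618 times the *Ctrl* level. DESeq2 and limma-voom put it past the threshold (adjusted p = 0.0294 and 0.0268). The difference was -0.50 with the length trend removed and -0.56 without *Srsf10-kd* 3 (edgeR adjusted p = 0.223 and 0.167).

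*Lpin1*, the lipin that also acts as a transcriptional coactivator in liver, did not follow. It measured 163, 108, 304 and 147 CPM in *Srsf10-kd* and 285, 216, 79.6 and 189 CPM in *Ctrl*. The highest liver was *Srsf10-kd* 3 and the lowest *Ctrl* 3, while the other 3 *Srsf10-kd* livers were below the other 3 *Ctrl* livers, and the log2 fold change was -0.09 ± 0.39 (edgeR adjusted p = 0.901), or 0.15 with the length trend removed. *Lpin3* was scarce, at 4.29, 3.54, 2.06 and 3.87 CPM against 4.10, 5.25, 4.63 and 5.86 CPM. Only *Srsf10-kd* 1 exceeded a *Ctrl* liver, and the log2 fold change was -0.53 ± 0.22 (edgeR p = 0.0383, adjusted p = 0.209; exact permutation p = 0.0571), or -0.35 without *Srsf10-kd* 3.

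The final acyltransferases did not separate the groups. *Dgat2*, which in liver uses newly made fatty acids, measured 349, 575, 555 and 404 CPM in *Srsf10-kd* and 527, 492, 454 and 406 CPM in *Ctrl*. Both the highest and the lowest liver were *Srsf10-kd*, and the log2 fold change was 0.003 ± 0.18 (edgeR adjusted p = 0.994). *Dgat1* measured 22.9, 25.1, 25.0 and 24.9 CPM against 24, 23.8, 25.6 and 29.5 CPM, a log2 fold change of -0.07 ± 0.10 (edgeR adjusted p = 0.683). Per length *Dgat2* stood at 153 and *Dgat1* at 8.21 CPM per kilobase. The monoacylglycerol acyltransferases *Mogat1* and *Mogat2* were low, at 3.05 to 9.65 CPM and 0.294 to 0.50 CPM over the 8 livers.

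**Figure D4:**
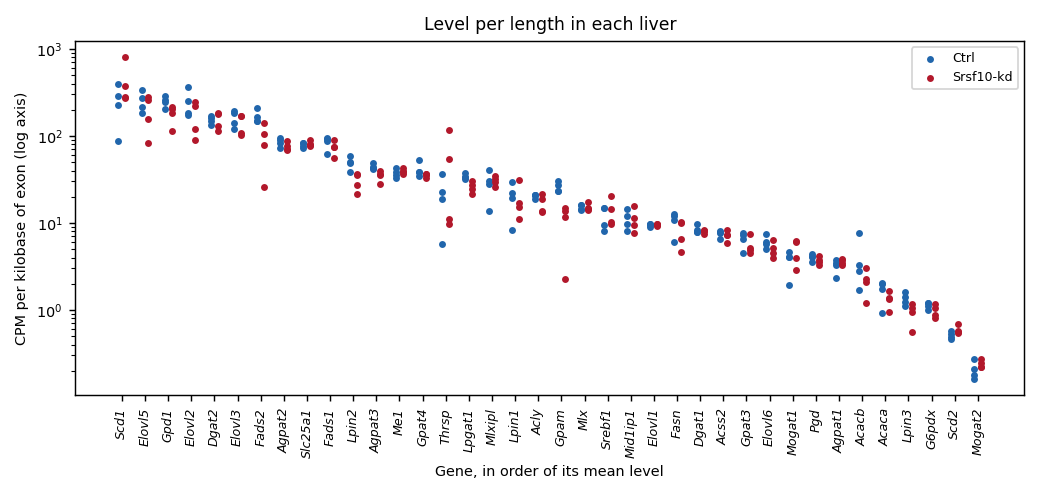
Level of each of the 38 genes per length, in CPM per kilobase of exon on a log axis, in each *Ctrl* (blue) and *Srsf10-kd* (red) liver, with genes in order of their mean over the 8 livers. The order runs from *Scd1* at 343 to *Mogat2* at 0.222 CPM per kilobase, and *Thrsp*, *Scd1*, *Gpam* and *Fads2* span the widest ranges.

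The plot of levels per length sets the members on a common scale. After *Scd1* came *Elovl5* at 224, *Gpd1* at 214, *Elovl2* at 206 and *Dgat2* at 153 CPM per kilobase. The core synthesis enzymes were lower on this scale, *Acly* at 18.7, *Fasn* at 9.09, *Acaca* at 1.5 and *Elovl6* at 5.51 CPM per kilobase. The scale divides by all annotated exonic bases, so it depends on the annotation. For *Acaca* these are 17074 bases, where its longest transcript has 9513. Every mouse had eaten the high fat diet, so any effect of diet on these levels was not tested.

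Promoter sequence of the 5 genes whose groups did not overlap is shown to compare their start regions. The windows run from 250 bases before to 50 after a RefSeq start on GRCm38.p6, nearest to the annotated gene start: Gpam at chr19:55127189-55127488 (minus), Lpin2 at chr17:71183282-71183581 (plus), Lpgat1 at chr1:191717774-191718073 (plus), Agpat3 at chr10:78351651-78351950 (minus) and Fads2 at chr19:10101454-10101753 (minus). Each is written 5′ to 3′ along the gene's strand, and capitals mark an E-box (CACGTG), an NF-Y box (CCAAT) or a GC box (GGGCGG) on either strand.
Gpam: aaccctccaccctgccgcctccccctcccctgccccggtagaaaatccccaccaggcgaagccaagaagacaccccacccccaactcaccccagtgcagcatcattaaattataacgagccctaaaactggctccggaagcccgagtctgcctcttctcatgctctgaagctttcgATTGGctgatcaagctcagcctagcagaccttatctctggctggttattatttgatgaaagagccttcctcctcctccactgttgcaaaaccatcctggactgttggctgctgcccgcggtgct
Lpin2: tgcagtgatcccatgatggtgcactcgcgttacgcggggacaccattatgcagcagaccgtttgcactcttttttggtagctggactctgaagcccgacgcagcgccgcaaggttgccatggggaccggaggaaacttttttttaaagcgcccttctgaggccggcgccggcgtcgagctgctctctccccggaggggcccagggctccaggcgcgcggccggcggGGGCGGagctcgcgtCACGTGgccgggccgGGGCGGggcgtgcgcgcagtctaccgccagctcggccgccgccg
Lpgat1: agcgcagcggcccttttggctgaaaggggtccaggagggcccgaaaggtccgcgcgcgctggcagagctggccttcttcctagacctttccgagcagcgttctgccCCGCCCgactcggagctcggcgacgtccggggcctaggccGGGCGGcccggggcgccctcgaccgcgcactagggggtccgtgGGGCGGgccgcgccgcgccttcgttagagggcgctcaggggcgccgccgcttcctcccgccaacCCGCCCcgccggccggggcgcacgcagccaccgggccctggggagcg
Agpat3: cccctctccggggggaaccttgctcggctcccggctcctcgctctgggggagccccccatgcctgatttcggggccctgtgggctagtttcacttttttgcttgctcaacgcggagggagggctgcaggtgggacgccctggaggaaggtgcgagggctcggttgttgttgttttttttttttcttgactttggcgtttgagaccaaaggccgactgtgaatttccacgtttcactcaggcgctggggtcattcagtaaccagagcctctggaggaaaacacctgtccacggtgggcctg
Fads2: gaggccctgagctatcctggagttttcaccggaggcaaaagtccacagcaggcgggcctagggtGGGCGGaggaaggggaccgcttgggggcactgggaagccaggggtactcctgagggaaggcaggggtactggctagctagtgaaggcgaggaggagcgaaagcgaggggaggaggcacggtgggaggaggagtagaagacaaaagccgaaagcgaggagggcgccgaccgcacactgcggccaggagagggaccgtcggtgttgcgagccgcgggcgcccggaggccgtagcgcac

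The 5 windows shown had no motif in common: the *Lpin2* window held 1 E-box and 2 GC boxes, *Lpgat1* 4 GC boxes, *Fads2* 1 GC box, *Gpam* 1 NF-Y box on the opposite strand and *Agpat3* none of the 3. Other RefSeq windows of the same genes, which are not shown, add a GC box for *Gpam* and an NF-Y box for *Lpin2*, so that 4 of the 5 genes had a GC box in some window. RefSeq windows were at hand for 29 of the 38 genes, 42 windows in all. An E-box was in 14.3% of these and in 7.15% of all 32851 promoter windows, an NF-Y box in 42.9% and 37.4%, and a GC box in 57.1% and 35.7%. The sterol response element TCACNCCAC, to which SREBPs bind, was in 1 window, of *Mlxipl* (2.38%, against 1.24% of all). A direct repeat of AGGTCA spaced by 1 base, a PPAR type of site, was in 0 of them and in 0.0396% of all. These are matches of letters within 300 bases.

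Other genes of these pathways were taken from a list of 63, of which 60 were tested: 40 had a log2 fold change below 0 and 20 above, with a median of -0.08. None passed an adjusted p of 0.05 in edgeR. At an unadjusted p under 0.05, 11 (18.3%) were lower and 1 (1.67%) higher, against 10.6% and 11.2% of all genes. DESeq2 put 4 of 63 (6.35%) past the adjusted threshold and limma-voom 6 of 60 (10%), all lower. The shares lower were 1.91% of the 26598 identifiers taken by DESeq2, which include genes too scarce for the filter, and 6.68% of all genes in limma-voom. In 7 of the 60 (11.7%) every *Srsf10-kd* liver lay below every *Ctrl* liver, and in 1 (1.67%) above, against 7.53% and 6.73% of all genes. *Irs2*, the insulin receptor substrate that carries insulin signals in hepatocytes, measured 3.71, 1.94, 2.02 and 3.47 CPM in *Srsf10-kd* and 9.13, 9.50, 5.13 and 13.8 CPM in *Ctrl*, a log2 fold change of -1.75 ± 0.32 (edgeR adjusted p = 0.0826). *Sp1*, a factor that binds GC boxes, lay at 27.7 to 30.4 CPM against 38.2 to 45.4 CPM (-0.57 ± 0.09, edgeR adjusted p = 0.0816, and -0.30 with the length trend removed). *Prkaa2*, the AMPK catalytic subunit alpha 2 that phosphorylates and restrains acetyl-CoA carboxylase, lay at 48.2 to 52.6 CPM against 60.6 to 69.4 CPM (-0.42 ± 0.09, edgeR adjusted p = 0.113, and -0.14 with the length trend removed). *H6pd*, an NADPH source in the endoplasmic reticulum, lay at 163 to 320 CPM against 374 to 465 CPM (-0.76 ± 0.19, edgeR adjusted p = 0.116). Without *Ctrl* 3, edgeR called *Irs2*, *Prkaa2* and *Sp1* lower (adjusted p = 0.0212, 0.0361 and 0.0337). The genes past the threshold in DESeq2 were *Irs2*, *Sp1*, *Prkaa2* and *H6pd* (adjusted p = 2.06e-05, 7.42e-06, 0.00182 and 0.0132). Limma-voom called the same genes (0.00727, 0.00731, 0.00731 and 0.0156) with *Mtor* and *Rxra* (0.0454 each), whose groups overlapped.

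The remaining genes of that list without overlap were closer together. *Mbtps2*, the site-2 protease that releases SREBPs, lay at 8.43 to 9.36 CPM in *Srsf10-kd* and 9.88 to 11.7 CPM in *Ctrl* (log2 fold change -0.27 ± 0.10, edgeR adjusted p = 0.181). *Nfya*, an NF-Y subunit, and *Akt2*, the hepatic insulin-signalling kinase, had log2 fold changes of -0.38 ± 0.17 and -0.24 ± 0.10 (edgeR adjusted p = 0.223 and 0.211). *Usf1*, an E-box factor, was the one that lay above, at 17.9 to 23.7 CPM against 15.6 to 17.6 CPM (0.26 ± 0.12, edgeR adjusted p = 0.227). With the length trend removed, *Mbtps2*, *Akt2* and *Usf1* were at -0.14, -0.12 and 0.15.

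**Figure D5:**
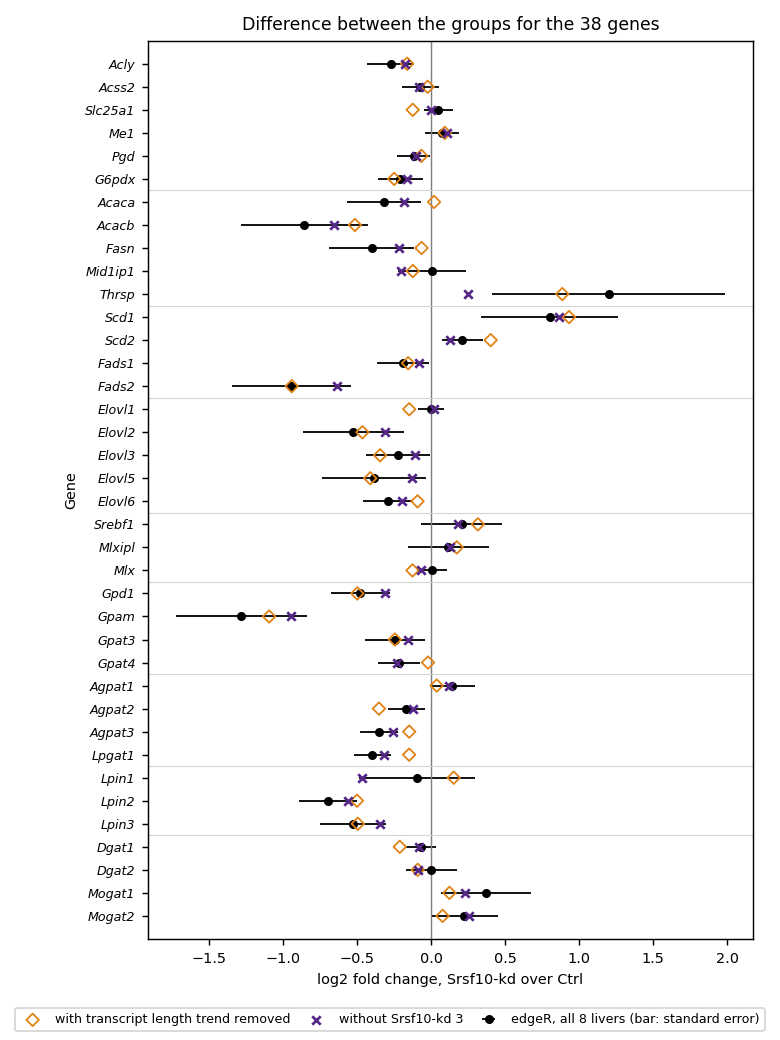
Log2 fold change of *Srsf10-kd* over *Ctrl* for each of the 38 genes, grouped by role from substrate supply at the top to final acylation at the bottom: edgeR with all 8 livers (black, bar ± standard error), without *Srsf10-kd* 3 (cross) and with the transcript length trend removed (diamond). *Gpam*, *Fads2*, *Acacb*, *Lpin2*, *Elovl2*, *Gpd1* and *Lpin3* are at -0.31 or lower in all 3, *Agpat3* and *Lpgat1* shrink to -0.15 with the length trend removed, and *Thrsp* drops from 1.20 to 0.25 without *Srsf10-kd* 3.

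In the plot of fold changes, the differences of *Gpam*, *Fads2* and *Gpd1* shrank without *Srsf10-kd* 3. Removing the length trend hardly moved *Fads2* and *Gpd1* but took *Gpam* from -1.28 to -1.09. It left -0.15 for both *Agpat3* and *Lpgat1*. For *Fasn* and *Acaca*, whose transcripts are long, removing the trend left -0.06 and 0.02.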

How the data were processed

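Poly(A) RNA-seq libraries of 8 livers, 4 per group, were used. The authors aligned the reads with STAR 2.7.7a to GRCm38 and deposited raw counts per gene, whole numbers without normalization; the annotation release and the strand column are not given in the sources used here. Counts were analysed in R 4.3.3 with edgeR 4.0.16 (filterByExpr, TMM, quasi-likelihood test on group alone, two-sided, Benjamini-Hochberg over the 15491 genes tested, threshold 0.05), with DESeq2 1.42.0, the tool of the study, and limma 3.58.1 (voom with sample quality weights) as alternatives. On simulated data edgeR recovered 87.5% of 200 genes changed by 1.5 (log2) among 15281, with 7 false calls. In the same draws DESeq2 recovered 90.5% with 38 false calls and limma-voom 87% with 10. A change of 1.5 is larger than the edgeR difference of any member, and the draws held no length trend. Recovery of differences as small as those of the members was therefore not tested. CPM used TMM factors, and log2 levels a prior count of 2. Length and GC trends were removed by lowess offsets (span 0.5). Single genes had an exact permutation test over 70 splits. No 2 libraries agreed within sampling noise (lowest chi-square per degree of freedom 46.5). Gene positions, overlaps and shared 75-base stretches came from GENCODE M21 (GRCm38), and promoters from RefSeq.

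The members and the gene lists were chosen with earlier results of these data known. Values in every liver are given for members whose groups do not overlap, with an unadjusted p under 0.05 in edgeR or past the threshold in DESeq2 or limma-voom, and for *Acly*, *Acaca*, *Fasn*, *Scd1*, *Elovl6*, *Srebf1*, *Mlxipl*, *Gpam*, *Lpin1*, *Lpin2*, *Dgat1* and *Dgat2* whatever they did. *Thrsp*, *Acacb*, *Elovl2*, *Elovl5* and *Gpat4* were added after their values were seen. Of the pathway list, genes without overlap or past the threshold in DESeq2 or limma-voom are named. The alternatives were other scalings, filters and tools, the length and GC corrections, the replicate number as a block, and each liver left out in turn. Libraries held 50456404 to 59697241 counts, and the SE reflects counting error and the spread between livers together.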

Additional observations from a re-analysis of the deposited data

Results flagged for a closer look

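Dixon's test was applied to each gene in each group of 4 livers, 78 groups in all, of which chance flags about 1 in 20, or 3.9. It singled out 4 livers for their distance from the rest of their group. *Dgat1* was 22.9 CPM in *Srsf10-kd* 1, where the other *Srsf10-kd* livers lay at 24.9 to 25.1 CPM. *Gpat4* was 219 CPM in *Srsf10-kd* 2, against 239 to 242 CPM. *Scd2* was 3.79 CPM in *Srsf10-kd* 3, against 2.99 to 3.11 CPM. *Acly* was 101 CPM in *Ctrl* 3, against 109 to 111 CPM.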

How the results depend on the processing

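The number of members past the adjusted threshold and lower was 0 in edgeR, 1 in DESeq2, 2 in limma-voom and 0 to 1 as single livers were left out, and the number higher was 0 in each of these. Members with an unadjusted p under 0.05 and lower numbered 7, and 4 to 9 as single livers were left out, with 4 without *Ctrl* 2 or *Ctrl* 4; with the length correction 1 member was higher. Members lying below without overlap numbered 5 to 8, with 8 without *Ctrl* 3, and those lying above 0 to 1, with 1 without *Ctrl* 2 or *Ctrl* 3. Fewer livers make absence of overlap easier to meet by chance. Its share over all genes was computed only with all 8 livers (7.53% below and 6.73% above), so these higher counts have no background. Pathway genes past the threshold and lower numbered 0 in edgeR, 4 in DESeq2, 6 in limma-voom, 1 with no filter on low counts and 0 to 3 as single livers were left out. The median log2 fold change of the members lay between -0.20 and -0.12 under all alternatives.

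Deviations of same-numbered livers correlated at -0.176, 0.213, 0.265 and 0.217 for numbers 1 to 4. Of the *Srsf10-kd* livers, 2, 3 and 4 correlated best with the *Ctrl* liver of their own number but 1 with *Ctrl* 4 (0.383), and the labels name nothing that a number shares, so the numbers were not taken to pair the livers. With the replicate block, 11 members had an unadjusted p under 0.05 and were lower: the same 7 as without it, with *Fasn*, *Acaca*, *Acacb* and *Acly*. Another 2, *Scd1* and *Mogat1*, were higher (2 higher with the length correction as well). No member passed the adjusted threshold, and 1 pathway gene did. The share of all genes called with the block was not computed, so these counts have no background and are not a result about these genes.

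Of 684 recomputed member fold changes, 624 kept their direction and side of the threshold, 4 came to pass it and 56, in 13 members with main values between -0.38 and 1.20, took the other sign. In limma-voom these were *Thrsp* (-0.40), *Dgat2* (-0.22), *Srebf1* (-0.16), *Mid1ip1* (-0.15), *Mlxipl* (-0.0075), *Mogat1* (-0.0066), *Mlx* (-0.0043), *Elovl5* (0.0266) and *Elovl1* (0.0383). With the length correction, alone and with the replicate block, they were *Slc25a1* (-0.12 and -0.12), *Acaca* (0.0202 and 0.0353), *Mid1ip1* (-0.12 and -0.13), *Mlx* (-0.13 and -0.12), *Lpin1* (0.15 and 0.0706) and *Dgat2* (-0.0899 and -0.11). The replicate block alone turned *Mid1ip1* (-0.0111) and *Dgat2* (-0.0203). DESeq2, library size only, no filter and the GC correction turned *Mid1ip1* (-0.0081, -0.014, -0.0056 and -0.0288) and *Dgat2* (-0.0103, -0.0089, -0.0073 and -0.0214), and the first 3 also *Mlx* (-0.005, -0.0043 and -0.0035). *Elovl1* was 0.0006 with DESeq2 size factors and 0.003 with at least 10 counts in every liver. Leaving out single livers gave values up to 0.0104 for *Acss2* (its lowest -0.15), between -0.20 and 0.15 for *Mid1ip1*, -0.0262 and 0.0198 for *Elovl1*, -0.0518 and 0.34 for *Srebf1*, -0.11 and 0.35 for *Mlxipl*, -0.0645 and 0.0395 for *Mlx*, -0.47 and 0.16 for *Lpin1* and -0.11 and 0.12 for *Dgat2*. The cause of these shifts was not tested. With 4 livers a group, the SE of log2 fold changes was 0.09 to 0.79, which limits what differences could be seen.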
